A study of Mus musculus with 9 samples.

Results

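The genes described are the subunits of the oxidative phosphorylation system, encoded partly by mitochondrial DNA and partly by nuclear DNA. They were taken by symbol: mt-Nd, mt-Co, mt-Cytb and mt-Atp genes of the mitochondrial genome, and nuclear Nduf, Sdh, Uqcr, Cox and Atp5 genes. This took 98 of the 21720 genes in the deposited table, 13 of them mitochondrially encoded and 85 nuclear. Of these, 94 passed a filter on low counts, namely all 13 mitochondrially encoded genes and 81 nuclear ones. The symbol pattern also takes in Cox7a2l, a protein of respiratory supercomplex assembly, and Cox5b-ps, a pseudogene that may share reads with Cox5b. Ndufa4 was counted with complex IV, of which it is a subunit despite its name. Its relative Ndufa4l2 was not moved and is counted with complex I by its symbol alone.

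Colon RNA of female wild-type C57BL/6 J mice was sequenced in 9 libraries of 3 groups, 3 libraries each. The Atorvastatin group received 10 mg/kg of atorvastatin, a cholesterol-lowering statin, by gavage in 0.2 mL once a day for 5 days, from day 3 to day 7. Mice of the Model group were gavaged for 7 days with 5% DSS (dextran sulfate sodium, which damages the epithelium of the colon). Those of the Normal group were gavaged for 7 days with the vehicle, 0.5% CMC-Na. The labels do not state outright whether the Atorvastatin mice also received DSS, nor whether each library comes from its own mouse. The tests therefore weigh differences against the spread between libraries, and that spread may be technical. Age is not given. The study addressed atorvastatin in ulcerative colitis.

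Oxidative phosphorylation moves electrons from NADH and succinate to oxygen through complexes I to IV of the inner mitochondrial membrane, and complex V uses the resulting proton gradient to make ATP. Complex II is wholly nuclear, whereas complexes I, III, IV and V combine subunits from both genomes. The mitochondrial genes are transcribed inside the organelle as long polycistronic RNAs, by a polymerase and factors that are themselves nuclear gene products, while each nuclear subunit has its own promoter. Colonocytes are known for oxidising butyrate from bacterial fermentation, and so for a high use of this pathway.

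In the mitochondrial genome neighbouring reading frames share bases, which limits how far their counts can be told apart. The transcript of mt-Atp8, a small membrane subunit of ATP synthase, is shown because it had the largest fold change of all members in Atorvastatin against Normal and because its end is also the start of mt-Atp6. It lies at chrM:7766-7969 (+ strand), and the capitals mark the 43 bases, or 21.1% of its 204, that belong to both genes (GENCODE M21 transcript).
mt-Atp8: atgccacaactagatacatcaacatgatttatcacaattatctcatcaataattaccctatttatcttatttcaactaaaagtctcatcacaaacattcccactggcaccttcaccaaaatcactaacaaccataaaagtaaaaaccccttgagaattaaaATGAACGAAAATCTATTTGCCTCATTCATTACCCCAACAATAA
A read inside the capitals could be given to either gene. The overlaps of mt-Nd4l with mt-Nd4 (7 bases) and of mt-Atp6 with mt-Co3 (1 base) are smaller. mt-Nd5 and mt-Nd6 share 14 bases on opposite strands, and because no source used here states whether counting used strand, reads of mt-Nd6 and of RNA from the strand opposite to it cannot be told apart. Nuclear copies of mitochondrial DNA could also share reads with these genes, so the mitochondrial counts carry that uncertainty.

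Among nuclear subunits, promoters hold sites for a few factors known to act on many of them, such as NRF1 and the ETS factor GABP. To show such sequence, the 150 bases before the RefSeq start (GRCm38.p6, 5′ to 3′ in the direction of the gene) are printed for 1 member of each complex: the member with the smallest p for Model against Normal among those with a RefSeq promoter. The capitals mark the searched motifs on either strand: CCGGAAG for ETS factors, GCGC, any 2 bases and GCGC for the core of the NRF1 site, and AAGATGG for YY1. Ndufs6, a complex I accessory subunit, is from chr13:73328483-73328632 (- strand); Sdha, the flavoprotein of complex II, from chr13:74350241-74350390 (- strand). Uqcr11, a small complex III subunit, is from chr10:80406822-80406971 (- strand). Cox5a, a matrix-side complex IV subunit, is from chr9:57521082-57521231 (+ strand), and Atp5e, the epsilon subunit of ATP synthase, from chr2:174464102-174464251 (- strand).
Ndufs6: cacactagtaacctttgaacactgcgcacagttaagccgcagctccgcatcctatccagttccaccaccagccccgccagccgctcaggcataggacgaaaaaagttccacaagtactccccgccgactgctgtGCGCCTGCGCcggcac
Sdha: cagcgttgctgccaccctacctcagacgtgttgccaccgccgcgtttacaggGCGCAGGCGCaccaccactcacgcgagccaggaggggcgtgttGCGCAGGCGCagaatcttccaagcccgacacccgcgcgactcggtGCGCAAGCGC
Uqcr11: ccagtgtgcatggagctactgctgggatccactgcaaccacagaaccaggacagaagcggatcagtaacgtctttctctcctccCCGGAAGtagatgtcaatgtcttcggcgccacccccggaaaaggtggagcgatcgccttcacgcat
Cox5a: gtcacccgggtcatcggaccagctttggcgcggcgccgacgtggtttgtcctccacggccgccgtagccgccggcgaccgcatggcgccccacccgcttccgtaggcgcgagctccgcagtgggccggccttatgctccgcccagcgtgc
Atp5e: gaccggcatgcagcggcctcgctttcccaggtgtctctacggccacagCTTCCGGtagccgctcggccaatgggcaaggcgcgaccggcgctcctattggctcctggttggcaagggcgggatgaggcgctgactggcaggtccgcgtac
In these stretches Sdha held 3 NRF1 cores and Ndufs6 held 1, Uqcr11 and Atp5e held 1 ETS motif each, and Cox5a held none of the 3 motifs. RefSeq promoters (250 bases before to 50 after the start) were matched for 69 of the 85 nuclear members. A gene was counted for a motif if any of its windows held it. The NRF1 core was found for 26.1% of the 69 members and for 7% of all 27025 genes with such windows. These genes were not matched to the members for expression or base composition. The ETS motif was found for 24.6% of the members and for 9.93% of all genes, and the YY1 motif for 15.9% and 7.28%. At least 1 of the 3 was in 40 of 69 members (58%), against 21.5% of all genes. A motif match describes the letters only.

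The whole series is summed up here only as far as it bears on these genes. Estimated counts summed to between 72584333 and 91737502 a library. All 10 surface colonocyte markers chosen to check the tissue, such as Car1, Aqp8, Krt20 and Vil1, were in the table, and 9 of them exceeded 100 CPM in every library; Slc51a, the exception, ran from 0.0944 to 84.3 CPM. In 2 Model libraries, pancreatic acinar genes such as Cela2a and Cpa1 took 7.90% (Model 2) and 3.37% (Model 3) of all counts, against at most 0.317% in the other 7 libraries. Values without these libraries are given where they matter.

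The mitochondrially encoded and the nuclear subunits differed in how far they stood from Normal. Levels are in CPM, made here from the estimated counts and the TMM-scaled library sizes. The summed level of the 13 mitochondrial genes was 6711, 6691 and 6599 CPM in Atorvastatin libraries 1 to 3, 6191, 8140.0 and 7807 CPM in Model libraries 1 to 3, and 9827, 10484 and 8499 CPM in Normal libraries 1 to 3. Every Atorvastatin and every Model library was below every Normal library. The 85 nuclear genes summed to 13622, 14012 and 13115 CPM in Atorvastatin, 13994, 12824 and 14877 CPM in Model and 15010.0, 14779.7 and 13882 CPM in Normal libraries. These 3 groups overlapped. In group means the mitochondrial sum was 6667 ± 59.7 CPM in Atorvastatin, 7379 ± 1043 CPM in Model and 9604 ± 1011 CPM in Normal libraries (SD, n = 3 each), and the nuclear sum was 13583 ± 449.7 CPM in Atorvastatin, 13898 ± 1030.0 CPM in Model and 14557 ± 596 CPM in Normal libraries. In bulk tissue, fewer cells of a type and less RNA per cell cannot be told apart.

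**Figure D1:**
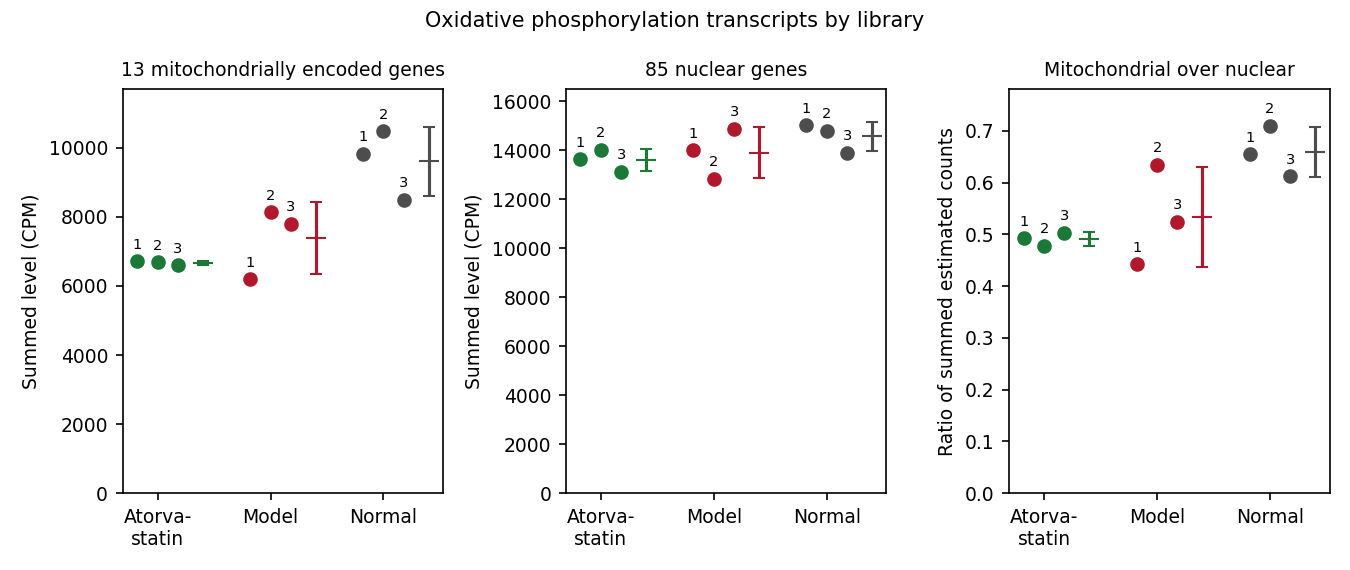
Summed level (CPM, axis from 0) of the 13 mitochondrially encoded genes and of the 85 nuclear genes, and the ratio of the summed estimated counts, in each numbered library of Atorvastatin, Model and Normal. Points are libraries, and the bar with whiskers is the mean with SD (n = 3). All Atorvastatin and Model libraries lie below the Normal libraries in the mitochondrial sum, and the groups overlap in the nuclear sum.

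The ratio of mitochondrial to nuclear counts is taken within a library, so that scaling between libraries cancels. It was 0.493, 0.478 and 0.503 in Atorvastatin libraries 1 to 3, 0.442, 0.635 and 0.525 in Model libraries and 0.655, 0.709 and 0.612 in Normal libraries. All Atorvastatin libraries were below all Normal ones, while Model 2 lay inside the Normal range and Model 1 was the lowest of the 9. mt-Co1 alone made up 49.98% to 60.0% of the mitochondrial counts. Without it the ratio was 0.246, 0.192 and 0.204 in Atorvastatin, 0.184, 0.283 and 0.210 in Model and 0.285, 0.320 and 0.281 in Normal libraries, with the same overlap of Model 2 with Normal. No test was made on these sums and ratios, which pool the members.

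By complex, the ratio of mitochondrial to nuclear counts had its lowest value in a Model library in complexes III and IV and in an Atorvastatin library in complexes I and V. In complex III, where mt-Cytb is the single mitochondrial gene, it was 0.390, 0.300 and 0.297 in Atorvastatin, 0.268, 0.437 and 0.318 in Model and 0.438, 0.456 and 0.460 in Normal libraries. All libraries of both other groups were below the Normal ones, Model 2 only just. In complex V it was 0.0902, 0.0753 and 0.0782 in Atorvastatin, 0.0778, 0.111 and 0.0784 in Model and 0.121, 0.131 and 0.112 in Normal libraries, again with no overlap with Normal. In complex IV it was 1.87, 1.99 and 2.11 in Atorvastatin, 1.70, 2.45 and 1.96 in Model and 2.61, 2.72 and 2.43 in Normal libraries. Here Model 2 lay inside the Normal range. In complex I it was 0.563, 0.414 and 0.454 in Atorvastatin, 0.415, 0.649 and 0.511 in Model and 0.596, 0.741 and 0.590 in Normal libraries, and again only Model 2 reached the Normal range.

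Set against gene length, the members differed far more from one another than between groups. Levels per kilobase, averaged over all 9 libraries, were highest for mt-Co1 (2876 CPM per kb), the catalytic core subunit of complex IV. Atp5b, the catalytic beta subunit of ATP synthase, followed with 1029 CPM per kb, and mt-Atp6, its proton-channel subunit, with 776 CPM per kb. The 10 highest held 4 mitochondrial and 6 nuclear members. mt-Nd3, a small membrane subunit of complex I, was the lowest mitochondrial gene at 52.3 CPM per kb. The median level per kilobase was 341 CPM for the mitochondrial genes, 233 CPM for nuclear complex IV, 208 CPM for complex V, 176 CPM for complex II, 162 CPM for complex III and 69.3 CPM for complex I. Nuclear lengths are those of the principal transcript, and 4 tested members had none.

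Model against Normal addresses what DSS did to the colon. All 13 mitochondrial log2 fold changes were negative under each scaling tried, and ran from -0.62 for mt-Co3 to -0.31 for mt-Co1 in the TMM-scaled fit. Their median was -0.47, beside -0.06 for the nuclear members and -0.00090 for all genes tested. No member passed the test. With edgeR's quasi-likelihood test and Benjamini-Hochberg adjustment over 16160 genes, 0 of the 94 tested members passed an adjusted p of 0.05, where 5.46% of all genes passed (4.37% higher and 1.1% lower in Model). At an unadjusted p under 0.05 there were 12 members (background 20.9%), 11 lower (background 7.87%) and 1 higher (background 13.1%). DESeq2 called 7 members, all lower (background 12.4%): mt-Co3, mt-Nd4l, mt-Co2, mt-Atp6, mt-Cytb, Uqcrb and Ndufs6; limma-voom called 0. Model and Normal libraries did not overlap for 14 members that were lower in Model (background 11.7%) and for 1 that was higher (background 14%). The 14 were 8 mitochondrial and 6 nuclear genes.

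Among the 3 mitochondrial complex IV subunits, mt-Co3 (chrM:8607-9390 in the deposited coordinates) had the smallest p. It was at 178, 255 and 206 CPM in Model libraries 1 to 3, against 348, 331 and 301 CPM in Normal libraries 1 to 3. All Model libraries were below all Normal ones, with Model 1 lowest. The log2 fold change was -0.62 ± 0.17 (SE, adjusted p = 0.0663, edgeR); it passed when Model 2 was left out (adjusted p = 0.0466). mt-Co2, which takes up electrons from cytochrome c, was at 382, 470.3 and 426 CPM in Model and 597, 626 and 543 CPM in Normal libraries, a log2 fold change of -0.47 ± 0.14 (adjusted p = 0.102, edgeR), with no overlap. The highly abundant mt-Co1 was at 3614, 4510.1 and 4688 CPM in Model and 5549.6, 5753 and 4605 CPM in Normal libraries. Here Model 3 exceeded Normal 3, and the log2 fold change was -0.31 ± 0.18 (adjusted p = 0.363, edgeR), the least negative of the 13.

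The mitochondrial subunits of complex I form the core of its membrane arm, through which protons pass. mt-Nd4l was at 71.9, 99.7 and 93.3 CPM in Model and 119, 142 and 115 CPM in Normal libraries, a log2 fold change of -0.50 ± 0.15 (adjusted p = 0.0895, edgeR). Its groups did not overlap. Those of mt-Nd3 (-0.60, adjusted p = 0.166), mt-Nd6 (-0.44, adjusted p = 0.216) and mt-Nd4 (-0.42, adjusted p = 0.226) did not overlap either. For mt-Nd1, mt-Nd2 and mt-Nd5 Model 2 reached the Normal range, with log2 fold changes of -0.32, -0.38 and -0.39. mt-Nd6, the 1 protein gene on the other strand of mitochondrial DNA, was at 177, 242 and 214 CPM in Model and 263, 333 and 263 CPM in Normal libraries.

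Of the remaining mitochondrial genes, mt-Cytb, the core of complex III, was at 379, 565 and 488 CPM in Model and 696, 719 and 653 CPM in Normal libraries. No Model library reached a Normal one, and the log2 fold change was -0.53 ± 0.19 (adjusted p = 0.150, edgeR). mt-Atp6 was at 396, 563 and 453 CPM in Model and 657, 749.6 and 616 CPM in Normal libraries, likewise without overlap, with -0.52 ± 0.17 (adjusted p = 0.126, edgeR). Its neighbour mt-Atp8 was at 81.4, 66.6 and 52.2 CPM in Model and 134, 92.4 and 69.2 CPM in Normal libraries. Model 1 lay inside the Normal range, Normal 1 stood well above Normal 2 and 3, and the log2 fold change was -0.56 ± 0.24 (adjusted p = 0.223, edgeR). Without Normal 1 it was -0.28 (adjusted p = 0.544), and with Model 2 and 3 left out -0.27.

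**Figure D2:**
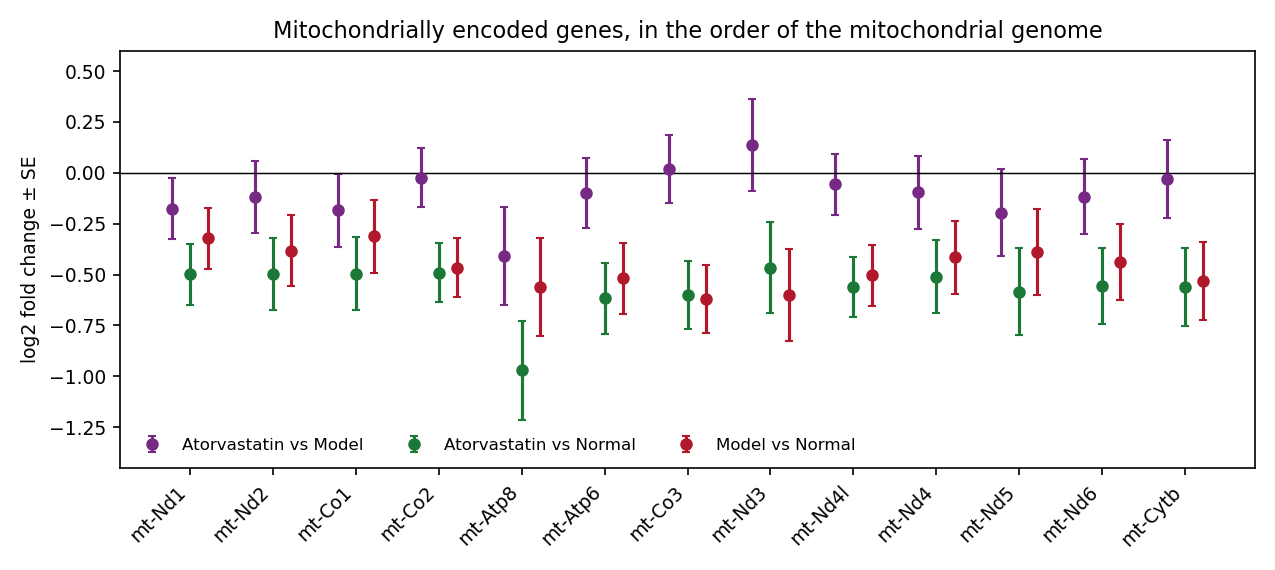
Log2 fold change with SE of each of the 13 mitochondrially encoded genes in the 3 comparisons (edgeR, n = 3 libraries a group). All 13 lie below 0 against Normal in both Model and Atorvastatin, and 11 of 13 lie below 0 in Atorvastatin against Model, where they run from -0.41 to 0.14; no gene passed an adjusted p of 0.05.

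The 3 Model libraries differed among themselves. Model 2 was the highest of them for 11 of 13 mitochondrial genes and Model 1 the lowest for 12. For the 81 nuclear members the order was another one: Model 2 was lowest for 52 and Model 3 highest for 56. The median absolute log2 ratio between Model 1 and Model 2 was 0.507 over the mitochondrial genes and 0.127 over the nuclear ones. Without Model 1, the log2 fold changes of mt-Co1, mt-Nd2, mt-Nd4 and mt-Nd5 were -0.21, -0.22, -0.25 and -0.24. Acinar genes were abundant in Model 2 and 3 but not in Model 1. Model 3 also stood apart in 4 of the 8 small intestinal enterocyte markers checked. Sis was at 47.0 CPM, Lct at 50.3 CPM, Apoa1 at 63.7 CPM and Apoa4 at 70.2 CPM, against at most 2.60 CPM in the other 8 libraries. Apob (205 CPM) and Anpep (152 CPM) were also highest in Model 3. Fabp2 and Alpi did not set it apart. Fabp2 was at 23.8 CPM in Model 3 and 199.7, 106 and 61.3 CPM in Normal libraries. Alpi was at 46.6 CPM in Model 3 and 109 CPM in Atorvastatin 3. The part of this RNA in the levels of the members was not tested. With Model 2 and 3 left out together, the mitochondrial median was -0.77 and the nuclear one -0.08; this leaves 1 Model library, the one without abundant acinar RNA, which is then assumed to vary like the other groups.

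Nuclear members stayed close to Normal in Model. Their median absolute log2 fold change was 0.0972, beside 0.287 for all genes tested, and 1.23% of them exceeded 0.5, beside 30.9% of all genes. Their spread between libraries of a group was also smaller, with a median SD of 0.141 on the log2 scale beside 0.294 for all genes and 0.224 for the mitochondrial genes. The 1 nuclear member over 0.5 was Ndufa4l2, which had few counts. Of the tested nuclear members, 78 averaged at least 2 CPM and 3 averaged less. All genes tested were not matched to them for level, and the part of level in these contrasts was not tested. Medians by complex were -0.07 for complex I, -0.09 for complex II, -0.13 for complex III, 0.02 for complex IV and -0.08 for complex V.

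In complex III, Uqcrb (chr13:67048681-67053442 in the deposited coordinates, whose build the table does not name), a small subunit near the ubiquinone site, had the smallest p of the nuclear members. It was at 38.0, 38.6 and 44.5 CPM in Model and 54.8, 55.5 and 50.4 CPM in Normal libraries. All 3 Model libraries were lower, by a log2 fold change of -0.41 ± 0.11 (adjusted p = 0.0726, edgeR; 0.0401 without Model 3). Uqcrc1, a core subunit, was at 319, 257 and 212 CPM in Model and 271, 272 and 262 CPM in Normal libraries. Its Model libraries lay on both sides of Normal (-0.03 ± 0.15). Uqcrfs1, the Rieske iron-sulfur protein, differed by -0.17 ± 0.13 (adjusted p = 0.501, edgeR), and 7 of the 8 nuclear complex III members had a negative fold change.

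In complex I, Ndufs6 (chr13:73467957-73476661 in the deposited coordinates) was at 53.6, 54.8 and 56.9 CPM in Model and 69.3, 66.1 and 64.9 CPM in Normal libraries. No library overlapped, and the log2 fold change was -0.28 ± 0.09 (adjusted p = 0.112, edgeR). Ndufs1, the largest iron-sulfur subunit of the NADH-oxidising module, had -0.25 ± 0.12 (adjusted p = 0.278) and Ndufv1, which binds NADH and flavin, -0.23 ± 0.12 (adjusted p = 0.303). Ndufv1 and the accessory subunits Ndufa13 and Ndufb10 also had no overlap. Ndufa13 was at 75.4, 73.6 and 55.3 CPM in Model and 88.9, 76.7 and 78.0 CPM in Normal libraries. Of the 37 tested nuclear members counted with complex I, 25 had a negative and 12 a positive fold change, Ndufa4l2 among the positive ones.

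In complex II, which is also an enzyme of the tricarboxylic acid cycle, Sdha was at 549.7, 500.3 and 508 CPM in Model and 602, 617 and 559.6 CPM in Normal libraries. Its groups did not overlap, with -0.19 ± 0.13 (adjusted p = 0.433, edgeR). The iron-sulfur subunit Sdhb had -0.12 ± 0.10, and the membrane anchors Sdhc and Sdhd had 0.06 ± 0.12 and -0.06 ± 0.17; these overlapped with Normal, and the sign for Sdhc turned with library size as the only scaling (-0.04) and without Model 3 (-0.01).

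In complex IV, Cox5a was at 113, 101 and 111 CPM in Model and 102, 96.1 and 90.6 CPM in Normal libraries, with 0.17 ± 0.10 (adjusted p = 0.354, edgeR). Model 2 lay just below Normal 1. The body-wide isoforms Cox6a1 (0.15 ± 0.15), Cox6b1 (-0.05 ± 0.15), Cox7a2 (0.07 ± 0.14) and Cox8a (0.08 ± 0.13) each overlapped between groups. Ndufa4 was at 40.6, 73.2 and 80.9 CPM in Model and 85.3, 80.2 and 68.7 CPM in Normal libraries, where Model 1 was the lowest of all. In complex V, Atp5e was the single member whose Model libraries were all higher, at 91.4, 86.5 and 105 CPM in Model and 81.3, 69.7 and 75.6 CPM in Normal libraries, a log2 fold change of 0.32 ± 0.13 (adjusted p = 0.196, edgeR). The abundant catalytic-head subunits Atp5b (-0.06 ± 0.14) and Atp5a1 (-0.10 ± 0.14) overlapped between groups.

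**Figure D3:**
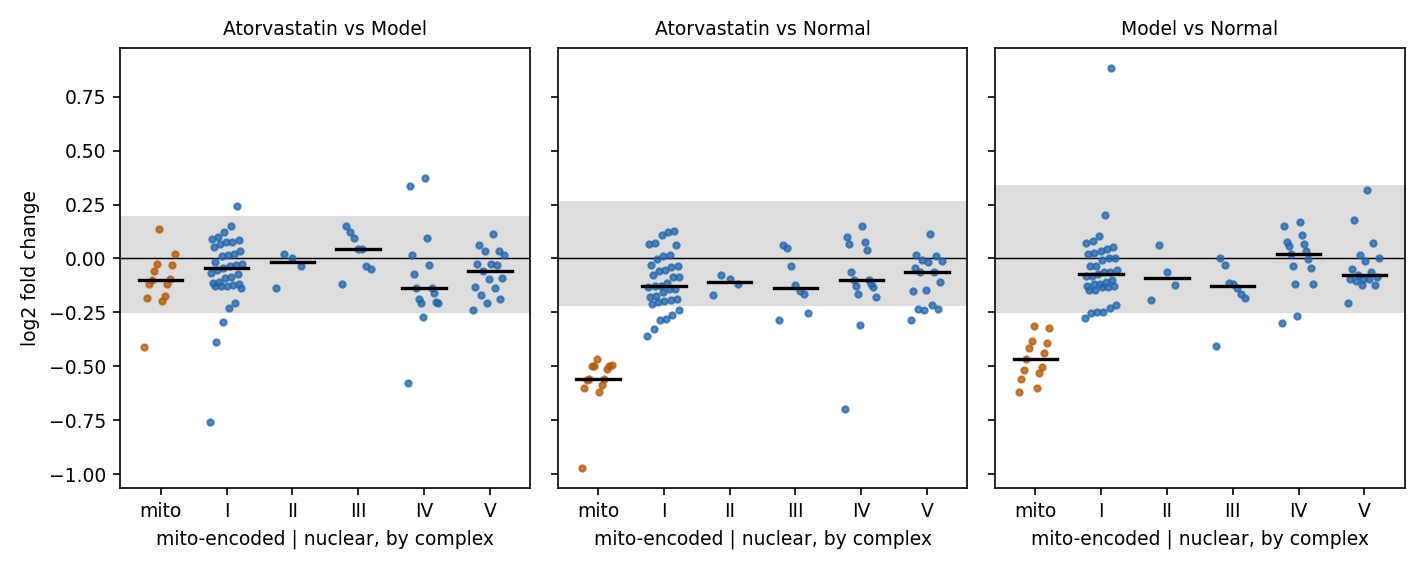
Log2 fold change of each of the 94 tested members, mitochondrially encoded or nuclear by complex, in the 3 comparisons. Points are genes, black lines are medians, and the grey band holds the middle 50% of all genes tested. The mitochondrial genes lie below the band against Normal in both Model and Atorvastatin, and the nuclear medians lie inside it. The lone high point under complex I for Model against Normal is Ndufa4l2, placed there by its symbol alone, which had few counts.

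Atorvastatin against Model addresses whether the treated colon differed from the DSS colon. No member passed the test here either, and the mitochondrial genes overlapped between the groups. The median log2 fold change was -0.10 for the mitochondrial and -0.04 for the nuclear members, beside -0.03 for all genes; with library size as the only scaling these were 0.15, 0.20 and 0.21, so the sign turned together with that of all genes. With edgeR 0 members passed, and the background was 0%, since 0 of all 16160 genes passed. At an unadjusted p under 0.05 there was 1 member (background 11.8%): Ndufa10 was higher (background 5.95%), and 0 were lower (background 5.85%). DESeq2 called 0 members (background 2.25%), and limma-voom called 0. The libraries did not overlap for 2 members higher in Atorvastatin, Ndufa10 and Ndufs6 (background 7.9%), and for 1 lower, Ndufa1 (background 7.7%).

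None of the 13 mitochondrial genes separated Atorvastatin from Model. mt-Co3 was at 250.1, 197 and 199.6 CPM in Atorvastatin and 178, 255 and 206 CPM in Model libraries (0.02 ± 0.17). mt-Cytb was at 559.7, 438 and 403 CPM in Atorvastatin and 379, 565 and 488 CPM in Model libraries (-0.03 ± 0.19). In both, the sign turned with a library left out. mt-Atp8 was at 56.2, 47.9 and 46.7 CPM in Atorvastatin and 81.4, 66.6 and 52.2 CPM in Model libraries, with -0.41 ± 0.24 (adjusted p = 0.545, edgeR). Atorvastatin 1 was above Model 3. Without Model 2, 5 of 13 mitochondrial fold changes were negative in place of 11, and the median was 0.04; with library size as the only scaling 1 was negative.

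Of the nuclear members, Ndufa10, an accessory complex I subunit, was at 155, 152 and 143 CPM in Atorvastatin and 132, 113 and 134 CPM in Model libraries. All 3 Atorvastatin libraries were higher, by 0.24 ± 0.11 (adjusted p = 0.421, edgeR). Ndufs6 was at 60.8, 62.4 and 60.3 CPM in Atorvastatin and 53.6, 54.8 and 56.9 CPM in Model libraries (0.15 ± 0.09). Ndufa1, a small membrane-arm subunit, was at 48.7, 51.9 and 50.8 CPM in Atorvastatin and 55.4, 55.0 and 67.3 CPM in Model libraries (-0.23 ± 0.12, adjusted p = 0.480; 0.00892 with library size as the only scaling). All Atorvastatin libraries were lower under TMM scaling. Ndufa6, another accessory subunit, had -0.29 ± 0.14 (adjusted p = 0.449), and Uqcrh, the hinge protein of complex III, -0.12 ± 0.15 (adjusted p = 0.822), with the sign of Uqcrh turned by library size as the only scaling (0.12) and without Model 3 (0.04). Cox7a1, the muscle and heart isoform of a complex IV subunit, was at 7.25, 10.3 and 6.33 CPM in Atorvastatin and 12.2, 8.13 and 15.3 CPM in Model libraries, with -0.58 ± 0.26 (adjusted p = 0.426, edgeR). Atorvastatin 2 exceeded Model 2. Complex medians were -0.04 for I, -0.02 for II, 0.04 for III, -0.14 for IV and -0.06 for V.

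Atorvastatin against Normal uses the same 3 Normal libraries as Model against Normal, so the 2 are not independent. All 13 mitochondrial fold changes were negative under each scaling tried, with a median of -0.56 and a range of -0.97 to -0.47 in the TMM-scaled fit, and no member passed the test. With edgeR 0 members passed, where 1.67% of all genes did (1.32% higher and 0.347% lower). At an unadjusted p under 0.05 there were 19 members (background 15.2%): 19 were lower (background 6.33%), 12 of them mitochondrial, and 0 were higher (background 8.84%). DESeq2 called 6, all mitochondrial and lower (background 6.55%): mt-Atp8, mt-Nd4l, mt-Co3, mt-Atp6, mt-Co2 and mt-Co1; limma-voom called 0. Libraries did not overlap for 35 members lower in Atorvastatin (background 11.2%), of which 12 were mitochondrial and 23 nuclear. They did not overlap for 2 members higher, Ndufs3 and Uqcrc1 (background 13.5%).

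mt-Atp8 had the largest fold change of any member in this comparison, -0.97 ± 0.24 (adjusted p = 0.0895, edgeR). It was at 56.2, 47.9 and 46.7 CPM in Atorvastatin and 134, 92.4 and 69.2 CPM in Normal libraries, with all Atorvastatin libraries lower and Normal 1 far above the other Normal libraries. mt-Nd4l was at 93.8, 81.8 and 79.2 CPM in Atorvastatin and 119, 142 and 115 CPM in Normal libraries (-0.56 ± 0.15, adjusted p = 0.107). mt-Co1 was at 3354, 4001 and 3921 CPM in Atorvastatin and 5549.6, 5753 and 4605 CPM in Normal libraries (-0.50 ± 0.18, adjusted p = 0.227). Neither overlapped. Atorvastatin 1 was the lowest of its group for mt-Co1 but the highest for the 12 other mitochondrial genes. mt-Nd3 alone overlapped, with Atorvastatin 1 above Normal 3, at -0.47 ± 0.22 (adjusted p = 0.374, edgeR). For the 9 not yet named here the adjusted p ran from 0.117 for mt-Co3 to 0.232 for mt-Nd5.

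The nuclear members had a median of -0.12 in this comparison, beside 0.01 for all genes. With library size as the only scaling the 2 medians were 0.03 and 0.15. A change of scaling shifts every gene alike, so it cannot test the gap between these medians. Ndufa1 had the smallest p, at 48.7, 51.9 and 50.8 CPM in Atorvastatin and 68.8, 58.7 and 67.0 CPM in Normal libraries (-0.36 ± 0.12, adjusted p = 0.178, edgeR). Every Atorvastatin library was lower. Cox7a1 was at 7.25, 10.3 and 6.33 CPM in Atorvastatin and 12.9, 12.2 and 13.7 CPM in Normal libraries (-0.70 ± 0.26, adjusted p = 0.245). Uqcrb was at 47.7, 42.4 and 41.9 CPM in Atorvastatin and 54.8, 55.5 and 50.4 CPM in Normal libraries (-0.28 ± 0.11). Both were without overlap. Uqcrh had -0.25 ± 0.15 (adjusted p = 0.478). Ndufb9 (-0.29), Atp5k, a small membrane subunit of ATP synthase (-0.28), and Cox6c (-0.31) were also lower in all 3 Atorvastatin libraries, with adjusted p of 0.264, 0.304 and 0.325. Uqcrc1 was at 280.0, 278 and 283 CPM in Atorvastatin and 271, 272 and 262 CPM in Normal libraries, one of the 2 members with all Atorvastatin libraries above Normal (0.06 ± 0.15).

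Several isoforms known from other tissues had few or no counts, unlike Cox7a1 above. Cox7b2 and Cox8c had 0 counts in all 9 libraries, which allows up to 12 estimated counts (3 read pairs) a library, or 0.132 to 0.175 CPM, counting error only. Cox8b, a heart and muscle isoform, had 7, 5 and 0 estimated counts in Atorvastatin, 0, 20 and 3 in Model and 9, 16 and 3 in Normal libraries. Ndufb11b had 8 counts in Model 2 and 0 elsewhere. These 4 were not tested. Of the tested members, Cox6a2, the muscle isoform of Cox6a1, Cox6b2, the testis isoform of Cox6b1, and Ndufa4l2 averaged under 2 CPM. Ndufa4l2, a hypoxia-induced relative of Ndufa4, had 54, 17 and 5 estimated counts in Atorvastatin, 24, 66 and 24 in Model and 11, 30 and 19 in Normal libraries. It had the largest positive fold change of any member for Model against Normal (0.88 ± 0.85, adjusted p = 0.609, edgeR) from these few counts.

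Genes around the complexes were taken from lists of the pathway. A search by symbol found 0 mitochondrial rRNA and tRNA genes in the deposited table. Of 33 tested genes of mitochondrial DNA upkeep, transcription and RNA processing, 1 fell in Model against Normal (background 1.1%) and 0 rose (background 4.37%); 29 fold changes were negative, with a median of -0.29 beside -0.00090 for all genes. The gene that fell was Twnk, the helicase of mitochondrial DNA replication, at 15.9, 14.9 and 15.5 CPM in Model and 24.5, 22.2 and 31.3 CPM in Normal libraries (-0.75 ± 0.16, adjusted p = 0.0284, edgeR). Every Model library was lower, and the call was lost without Normal 1, Normal 3, Model 1 or Model 2 (adjusted p between 0.0664 and 0.106) with Model 2 and 3 left out together (0.159) and with the 2 groups fitted alone (0.0661). Tfam, which packages mitochondrial DNA and starts its transcription, was at 20.7, 23.1 and 27.4 CPM in Model and 35.0, 31.1 and 31.9 CPM in Normal libraries (-0.46 ± 0.14, adjusted p = 0.0937). For Pnpt1, an RNA exonuclease of the organelle, and Ssbp1, its single-stranded DNA binding protein, the values were -0.50 ± 0.14 and -0.60 ± 0.18, with adjusted p of 0.0827 and 0.0886.

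Of 78 mitochondrial ribosomal protein genes, 1 fell in Model (background 1.1%) and 0 rose (background 4.37%); 61 fold changes were negative, with a median of -0.13. Mrps9 was at 21.0, 24.0 and 22.2 CPM in Model and 30.8, 29.9 and 30.8 CPM in Normal libraries (-0.45 ± 0.11, adjusted p = 0.0493, edgeR). Its Model libraries were all lower, but the call was lost when any 1 of the 9 libraries was left out (adjusted p of 0.0624 to 0.165), with Model 2 and 3 left out together (0.107), with the 2 groups alone (0.118), with limma-voom (0.0526) and with no filter on low counts (0.0616). No call was made in 46 assembly factors (median -0.12), 18 tricarboxylic acid cycle genes (-0.26), 17 biogenesis regulators (-0.06), 16 carriers and uncouplers (-0.05) or 7 subunits outside the symbol pattern (-0.11). In these lists Taco1, which aids translation of mt-Co1, had -0.46 ± 0.14 (adjusted p = 0.0945), the mitochondrial isocitrate dehydrogenase Idh2 -0.35 ± 0.10 (adjusted p = 0.0876), and Atpif1, the inhibitor of ATP synthase, -0.38 ± 0.12 (adjusted p = 0.0957). Cox4i1, the main isoform of a core-bound complex IV subunit, was at 630.2, 335 and 502 CPM in Model and 340.2, 337 and 313 CPM in Normal libraries (0.57 ± 0.26), with Model 2 inside the Normal range.

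In Atorvastatin against Model 0 genes of these lists passed, as in the whole table. This comparison shares its 3 Model libraries with the one above, so opposite signs in the 2 are in part built in. Twnk was at 28.0, 23.1 and 24.7 CPM in Atorvastatin and 15.9, 14.9 and 15.5 CPM in Model libraries (0.71 ± 0.16, adjusted p = 0.322). Tfam was at 34.8, 29.3 and 30.0 CPM in Atorvastatin and 20.7, 23.1 and 27.4 CPM in Model libraries (0.40 ± 0.14). Both were higher in all 3 Atorvastatin libraries. Of the mitochondrial ribosomal proteins 66 of 78 fold changes were positive (median 0.21, beside -0.03 for all genes), and 21 were without overlap and higher (background 7.9%), 0 lower (background 7.7%). Among the regulators, Hif1a, the oxygen-responsive factor, was at 129.7, 158 and 100.4 CPM in Atorvastatin and 236, 205 and 254 CPM in Model libraries (-0.84 ± 0.18, adjusted p = 0.322), with all Atorvastatin libraries lower. Ppargc1a, a coactivator of mitochondrial biogenesis, was at 17.5, 40.9 and 28.1 CPM in Atorvastatin and 61.2, 23.6 and 76.4 CPM in Model libraries, with overlap (-0.90 ± 0.43).

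In Atorvastatin against Normal 0 genes of the 7 lists passed either, and the medians were -0.06 for DNA upkeep and transcription, 0.08 for ribosomal proteins, 0.01 for assembly factors, -0.17 for the tricarboxylic acid cycle, -0.04 for regulators, -0.10 for carriers and -0.08 for the other subunits. Vdac3, a channel of the outer membrane, was at 95.6, 105 and 93.7 CPM in Atorvastatin and 117, 134 and 127 CPM in Normal libraries (-0.36 ± 0.12, adjusted p = 0.178, edgeR). All 3 Atorvastatin libraries were lower. Tfam was at 34.8, 29.3 and 30.0 CPM in Atorvastatin and 35.0, 31.1 and 31.9 CPM in Normal libraries, with overlap. In its list 4 genes were lower without overlap (background 11.2%) and 0 higher (background 13.5%). Slirp (-0.38 ± 0.18, adjusted p = 0.380, edgeR) and Mterf3 (-0.31 ± 0.19, adjusted p = 0.503, edgeR) were among these 4. The part of these genes in the mitochondrial levels was not tested.

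**Figure D4:**
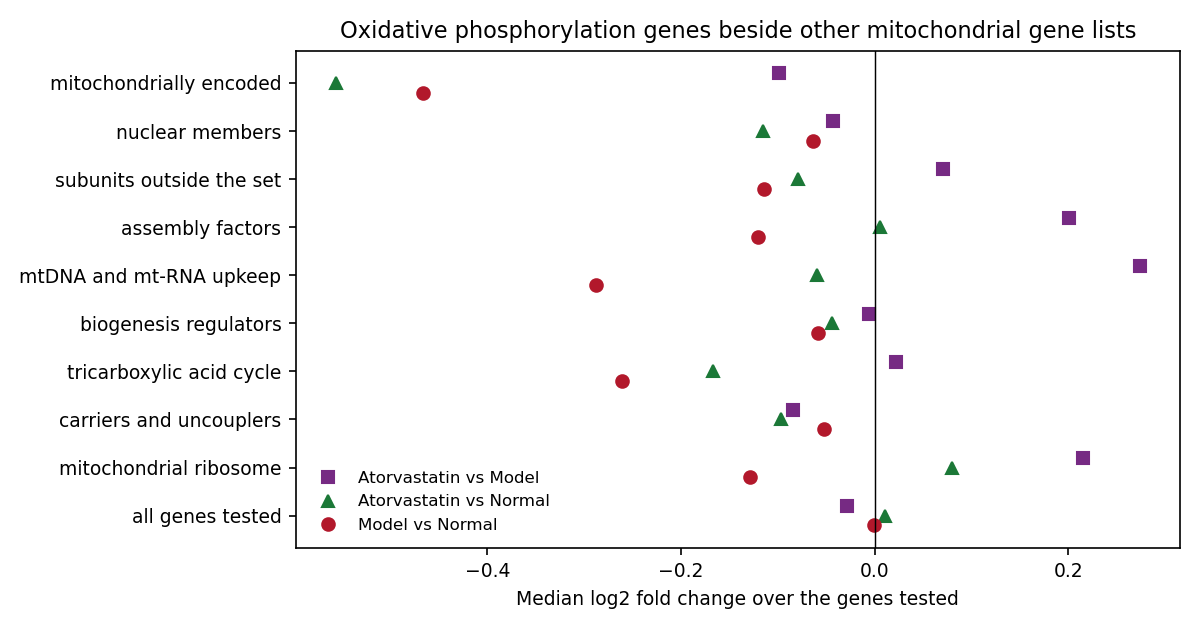
Median log2 fold change of the mitochondrially encoded genes, the nuclear members and each pathway list in the 3 comparisons, with all genes tested for reference. The mitochondrially encoded genes have the most negative medians against Normal, -0.47 in Model and -0.56 in Atorvastatin; mitochondrial ribosomal proteins and DNA upkeep genes have positive medians in Atorvastatin against Model (0.21 and 0.27).

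Markers of some other cell types moved with the groups. The sums of the B and plasma cell and of the fat markers overlapped between all 3 groups, with 0 calls. The T cell, erythrocyte and striated muscle sums overlapped in some comparisons and not in others, also with 0 calls. The 6 fibroblast markers, such as Col1a1 and Dcn, summed to 1571, 1178 and 938 CPM in Atorvastatin, 1237, 1802 and 971 CPM in Model and 544, 639 and 483 CPM in Normal libraries, and 4 of 6 rose in Model against Normal. The 6 macrophage markers summed to 310.2, 346 and 393 CPM in Atorvastatin, 436, 422 and 393 CPM in Model and 137, 234 and 132 CPM in Normal libraries, with 4 of 6 higher in Model. The 6 neutrophil and monocyte markers summed to 93.0, 42.7 and 31.7 CPM in Atorvastatin, 93.6, 63.5 and 52.9 CPM in Model and 15.8, 24.96 and 10.4 CPM in Normal libraries, with 4 of 6 higher in Model. The background for these calls of higher genes in Model was 4.37%. In all 3 lists every Atorvastatin and Model library exceeded every Normal one. Of each list, 3 of 6 markers passed as higher in Atorvastatin against Normal (background 1.32%). The 10 surface colonocyte markers summed to 8344, 9549 and 10894 CPM in Atorvastatin, 10671, 10671 and 9936 CPM in Model and 11840.2, 12681 and 9639 CPM in Normal libraries, with overlap and 0 calls. Its members did not move alike. The anion exchanger Slc26a3 was at 217, 512 and 165 CPM in Atorvastatin, 805, 441 and 855 CPM in Model and 901, 1245 and 849 CPM in Normal libraries, and the carbonic anhydrase Car4 at 201, 892 and 433 CPM in Atorvastatin, 1452, 976 and 1675 CPM in Model and 1083, 1821 and 1203 CPM in Normal libraries. Both were lower in every Atorvastatin library than in every Normal one. Car1, another carbonic anhydrase, was at 2795, 554 and 3176 CPM in Atorvastatin, 543, 878 and 192 CPM in Model and 1330.3, 663 and 689 CPM in Normal libraries, highest in Atorvastatin 1 and 3. The 7 goblet cell markers, such as Muc2 and Clca1, summed to 16919, 27332 and 25971 CPM in Atorvastatin and 24923, 34649 and 32014 CPM in Model libraries. In Normal libraries the sum was 81883, 35383 and 81117 CPM, above all others. Against Normal there were 0 calls in Model and 1 lower in Atorvastatin (background 0.347%). These markers did not move alike either. Clca1 was at 3440, 3255 and 7219 CPM in Model and 32272, 9377 and 35183 CPM in Normal libraries. Zg16 overlapped, at 3568, 4821 and 4235.5 CPM in Model and 3119, 4175 and 3623 CPM in Normal libraries. Tff3 was higher in every Model library, at 546, 461 and 574 CPM against 424, 380 and 422 CPM in Normal. The 7 smooth muscle markers summed to 1779.6, 2091 and 2479.6 CPM in Atorvastatin and 3950.1, 2852 and 2016 CPM in Model libraries. In Normal libraries the sum was 4736, 3353 and 4335 CPM, with all Atorvastatin libraries below all Normal ones and 0 calls. Of the 7, Lmod1 alone overlapped, at 40.2 CPM in Atorvastatin 3 and 34.4, 26.9 and 32.9 CPM in Normal libraries. Like the smooth muscle sum, Cox7a1 was lower in every Atorvastatin library than in every Normal one. It had its lowest value in Atorvastatin 3 (6.33 CPM). Its highest was in Model 3 (15.3 CPM), where the smooth muscle sum was 2016 CPM. The part of these cell types in the levels of the mitochondrial and nuclear subunits was not tested.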

How the data were processed

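The labels' protocols give 1.3 µg of total RNA as the input of each colon mRNA library. The authors deposited estimated counts in whole numbers for 21720 genes; 1997 values of 4 against 346 values of 1 put a read pair at about 4 of them. The submitters' processing notes list bcl2fastq 2.0, HISAT2, StringTie and DESeq2 with no roles, and mm39 and rn6 as builds; the table names none. Here edgeR 4.0.16 (R 4.3.3) fitted its quasi-likelihood model of 3 groups to the 9 TMM-scaled libraries, for the 16160 genes kept by filterByExpr. P-values are two-sided and Benjamini-Hochberg adjusted over these genes (threshold 0.05); an SE is the absolute log2 fold change over the square root of F. The scripts were tested on simulated data. Members and lists were chosen with earlier results of these data known. Genes named are the mitochondrial members, those with the 3 smallest p per complex and comparison, core subunits, isoforms, and, of each list, some of the 4 smallest by p; others, such as Ndufa13, were chosen after their values were seen. A gene that this rule picks is not reported here. Nuclear lengths are from GENCODE M21, promoters from RefSeq. Alternatives were DESeq2 1.42.0, limma-voom (limma 3.58.1), other scalings and filters, the 2 groups alone, counts divided by 4, a replicate block and left-out libraries. Figures were drawn in Python 3.11.15 with matplotlib 3.10.9.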

Additional observations from a re-analysis of the deposited data

How the results depend on the processing

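Members called for Model against Normal numbered 1 with library size as the only scaling (mt-Co3), 7 with DESeq2, and 0 to 1 with a library left out; for Atorvastatin against Normal DESeq2 called 6. In the other alternatives run, and in all those for Atorvastatin against Model, 0 members were called. The mitochondrial median for Model against Normal was -0.77 with Model 2 and 3 left out, and -0.56 to -0.38 with 1 library left out. For Atorvastatin against Model it was 0.15 both with library size as the only scaling and with Model 2 and 3 left out, and -0.23 to 0.04 with 1 library left out; the nuclear median with library size alone was 0.20. For Atorvastatin against Normal the nuclear median was then 0.027. Library size alone moved the median of all genes to -0.10 for Model against Normal, 0.21 for Atorvastatin against Model and 0.15 for Atorvastatin against Normal, which is a shift of every gene by construction. Among members, signs were followed only for the mitochondrial genes and those with the 3 smallest p per complex and comparison. Other named nuclear genes, such as Cox8a and Cox7a2 in Model against Normal, were not followed. Of the nuclear genes followed, library size alone turned Sdhc (-0.036) in Model against Normal. In Atorvastatin against Normal it turned Sdhb (0.020) and Sdhc (0.064). In Atorvastatin against Model it turned Atp5e (0.027), Atp5k (0.051), Cox8a (0.028), Ndufa1 (0.0089), Sdhc (0.10), Sdhd (0.21) and Uqcrh (0.12). Sdhd also turned with upper-quartile scaling (0.0074) and without Model 2 and 3 (0.045), where Sdha was at -0.062. With 1 library left out, values ran from -0.012 to 0.13 for Sdhc in Model against Normal, and in Atorvastatin against Model from -0.0063 to 0.063 for Sdha, -0.14 to 0.13 for Sdhd and -0.22 to 0.038 for Uqcrh. Of the mitochondrial genes in Atorvastatin against Model, 11 were negative; with library size alone the sign turned for mt-Atp6 (0.15), mt-Co1 (0.056), mt-Co2 (0.22), mt-Cytb (0.22), mt-Nd1 (0.075), mt-Nd2 (0.14), mt-Nd4 (0.16), mt-Nd4l (0.19), mt-Nd5 (0.059) and mt-Nd6 (0.14), with upper-quartile scaling for mt-Co2 (0.017) and mt-Cytb (0.011), and with Model 2 and 3 left out for mt-Atp6 (0.15), mt-Co1 (0.057), mt-Co2 (0.13), mt-Cytb (0.30), mt-Nd1 (0.0066), mt-Nd2 (0.28), mt-Nd4 (0.31), mt-Nd4l (0.24), mt-Nd5 (0.15) and mt-Nd6 (0.14). With 1 library left out these ran from -0.21 to 0.050 for mt-Atp6, -0.096 to 0.052 for mt-Co2, -0.095 to 0.17 for mt-Co3, -0.17 to 0.11 for mt-Cytb, -0.28 to 0.067 for mt-Nd2, -0.055 to 0.31 for mt-Nd3, -0.26 to 0.025 for mt-Nd4 and -0.18 to 0.039 for mt-Nd4l. Over 70 gene results and 1470 alternatives, 1378 kept their direction and side of the threshold, 16 passed it newly, 21 lost it (all Twnk or Mrps9) and 55 turned sign; for these the cause was not tested. The same replicate numbers did not pair the libraries (correlations of deviations from -0.233 to 0.191); with the replicate block 0 members were called in each comparison, and adjusted p was 0.0685 for Twnk and 0.142 for Mrps9, and calls over all genes were 402, 0 and 104 in place of 883, 0 and 270.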
